A study of Mus musculus with 14 samples.

Results

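Long H3K9me3 domains without acetylation are stretches of heterochromatin in E14 mouse embryonic stem cells. They were chosen by their vehicle values, as the autosomal regions of the vehicle H3K9me3 list that are at least 4000 bp wide and overlap no vehicle H3K27ac region by 1 bp or more. The rule finds 2544 domains among 56941 autosomal regions (4.47%), in a list of 60836 regions and a series of 351659 intervals over 7 peak lists. ChIP-seq had been done on cells treated with 1 µM doxorubicin for 6 h and kept without drug for another 6 h, and on control cells that received the DMSO vehicle on the same schedule. H3K9me3 and H3K27ac were each profiled after doxorubicin and after vehicle, HA ChIP was done on cells with HA-tagged p53 and on untagged cells, and the input came from doxorubicin-treated cells. The labels do not give the treatment of the HA libraries or say how the tag was introduced. Each list pools the 2 libraries of its group, so every value below is 1 value per group and no difference has a replicate check. Shares carry 95% Wilson intervals, which reflect counting error alone.

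Trimethylation of lysine 9 on histone H3 marks heterochromatin. In embryonic stem cells it is placed by SETDB1 and the SUV39H enzymes, is read by HP1 proteins, and lies over many endogenous retroviruses, where KRAB zinc finger proteins recruit SETDB1 through TRIM28. Acetylation of lysine 27 marks active promoters and enhancers and is seldom found on the same chromatin. Doxorubicin traps topoisomerase II on DNA and breaks it, which stabilises p53, a transcription factor that binds many sites.

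RefSeq promoters (GRCm38.p6, 250 bases before to 50 after a gene start, 300 bases each) lay wholly inside a domain in 54 cases, in 46 domains and for 49 genes, 34 of them long non-coding and 15 protein-coding. They are shown because several are copies of each other on different chromosomes. Of the 54, 20 (37.0%) shared at least 20 runs of 24 bases, on either strand, with a promoter on another chromosome or over 100000 bp away, against 2397 (7.30%) of the 32817 promoters at distinct places on assembled chromosomes. The 20 count overlapping promoters of Gm35454 and of Gm32026 separately. No share matched for gene type was computed. The first set holds Gm41939 at chr1:120572228-120572527 on the minus strand, Gm30618 at chr10:30819435-30819734 on the plus strand and Gramd1c at chr16:44041959-44042258 on the minus strand. Capitals mark bases in runs of 24 shared with another promoter of the set.
Gm41939: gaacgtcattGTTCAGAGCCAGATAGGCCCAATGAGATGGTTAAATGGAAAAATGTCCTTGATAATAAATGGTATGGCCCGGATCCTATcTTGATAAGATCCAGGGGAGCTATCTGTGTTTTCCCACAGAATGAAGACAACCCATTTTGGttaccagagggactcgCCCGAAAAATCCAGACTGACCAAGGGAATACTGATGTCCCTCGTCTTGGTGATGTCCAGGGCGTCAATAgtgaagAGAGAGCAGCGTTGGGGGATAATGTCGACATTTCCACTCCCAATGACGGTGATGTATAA
Gm30618: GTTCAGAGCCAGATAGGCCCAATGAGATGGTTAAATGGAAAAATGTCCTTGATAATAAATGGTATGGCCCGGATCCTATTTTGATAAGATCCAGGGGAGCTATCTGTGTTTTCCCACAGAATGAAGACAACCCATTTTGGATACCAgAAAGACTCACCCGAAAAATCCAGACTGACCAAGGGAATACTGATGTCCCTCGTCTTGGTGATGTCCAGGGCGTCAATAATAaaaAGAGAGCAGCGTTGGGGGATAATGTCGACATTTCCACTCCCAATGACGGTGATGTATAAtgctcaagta
Gramd1c: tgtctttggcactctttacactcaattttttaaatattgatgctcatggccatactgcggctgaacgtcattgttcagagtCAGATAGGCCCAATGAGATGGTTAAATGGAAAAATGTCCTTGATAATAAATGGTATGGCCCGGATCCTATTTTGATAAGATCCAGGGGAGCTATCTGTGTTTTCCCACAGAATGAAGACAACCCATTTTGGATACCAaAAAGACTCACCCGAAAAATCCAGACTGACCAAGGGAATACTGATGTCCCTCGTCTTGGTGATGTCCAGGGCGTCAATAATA

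Gm41939 and Gm30618 were 97.2% identical over 290 aligned positions, Gm30618 and Gramd1c 99.1% over 228, and Gm41939 and Gramd1c 97.0% over 235. Gm41939 and Gm30618 are long non-coding genes, and Gramd1c encodes a protein of sterol transport at the endoplasmic reticulum. Each of their domains lay in 1 region after doxorubicin, of 9271 bp at Gm41939, 9373 bp at Gm30618 and 11468 bp at Gramd1c. In vehicle the widths were close to each other, 9079, 9415 and 9194 bp in the same order. The scaled pileup, which is the number of fragments over the highest summit per 1000000 fragments left after filtering, was 3.61 in doxorubicin against 3.13 in vehicle at Gm41939. At Gm30618 it was 4.79 in doxorubicin against 3.88 in vehicle, and at Gramd1c 5.14 in doxorubicin against 3.75 in vehicle. The ratios of doxorubicin to vehicle were 1.15, 1.24 and 1.37, on either side of the median of 1.27 over all regions with a summit in both lists.

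A further pair, Gm52531 at chr2:150197602-150197901 and Gm33752 at chr4:7648860-7649159, both long non-coding and on the minus strand, matched in opposite orientation over 220 positions with 96.4% identity. Capitals again mark the shared runs.
Gm52531: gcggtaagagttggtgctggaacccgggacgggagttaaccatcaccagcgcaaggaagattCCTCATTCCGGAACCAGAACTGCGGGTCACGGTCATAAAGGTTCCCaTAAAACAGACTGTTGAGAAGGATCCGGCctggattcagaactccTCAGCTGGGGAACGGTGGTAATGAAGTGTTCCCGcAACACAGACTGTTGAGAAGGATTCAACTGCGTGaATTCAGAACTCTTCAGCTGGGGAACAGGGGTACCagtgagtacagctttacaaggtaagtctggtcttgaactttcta
Gm33752: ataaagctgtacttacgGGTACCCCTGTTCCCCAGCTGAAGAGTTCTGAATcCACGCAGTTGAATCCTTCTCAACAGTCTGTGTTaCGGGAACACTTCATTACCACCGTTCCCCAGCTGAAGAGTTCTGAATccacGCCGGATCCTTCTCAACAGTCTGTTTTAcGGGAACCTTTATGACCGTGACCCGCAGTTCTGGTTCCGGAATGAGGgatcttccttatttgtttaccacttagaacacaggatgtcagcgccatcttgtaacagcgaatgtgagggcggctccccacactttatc

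The last pair shown, the long non-coding genes Gm35195 at chr6:59697917-59698216 and Gm29709 at chr12:85407854-85408153, both on the plus strand, matched in opposite orientation over 268 positions with 87.7% identity. They are not each other's only copies. Gm29709 also matched promoters of Gm32026 on chromosome 19, at 89.6% over 270 and 88.7% over 300 positions. The promoter with the most shared runs was that of Gm41479 for Gm35195 and that of Gm46490 for Gm29709.
Gm35195: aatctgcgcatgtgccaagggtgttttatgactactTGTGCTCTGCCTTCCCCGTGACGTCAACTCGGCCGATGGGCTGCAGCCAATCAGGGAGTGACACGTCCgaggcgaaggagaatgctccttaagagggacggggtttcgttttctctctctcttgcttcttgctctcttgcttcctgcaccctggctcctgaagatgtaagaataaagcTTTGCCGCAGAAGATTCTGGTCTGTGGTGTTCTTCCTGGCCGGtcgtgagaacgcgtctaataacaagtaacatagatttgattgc
Gm29709: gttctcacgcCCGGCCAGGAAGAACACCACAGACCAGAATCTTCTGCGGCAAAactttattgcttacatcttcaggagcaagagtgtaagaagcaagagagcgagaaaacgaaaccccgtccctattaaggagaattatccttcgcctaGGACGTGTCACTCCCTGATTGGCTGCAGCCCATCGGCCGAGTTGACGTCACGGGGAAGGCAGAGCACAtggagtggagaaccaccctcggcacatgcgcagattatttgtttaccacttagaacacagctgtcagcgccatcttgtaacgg

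The domain of Gm35195 had a scaled pileup of 4.79 in doxorubicin and 2.94 in vehicle, a ratio of 1.63, while that of Gm29709 had 6.32 in doxorubicin and 6.57 in vehicle, a ratio of 0.962. The ratios of the pair Gm52531 and Gm33752 were 1.19 and 1.27. The sources used here do not give how reads that align equally well at several places were handled, and its part in values at these copies was not tested.

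A promoter rich in CpG and with no such copy is that of Ogfod2, which encodes an oxygenase of the 2-oxoglutarate and iron dependent family, at chr5:124112071-124112370 on the plus strand. It held 32 CpG dinucleotides, marked here in capitals, and overlaps the promoter of the long non-coding Gm16001 on the other strand, which held 34, the most of the 54.
Ogfod2: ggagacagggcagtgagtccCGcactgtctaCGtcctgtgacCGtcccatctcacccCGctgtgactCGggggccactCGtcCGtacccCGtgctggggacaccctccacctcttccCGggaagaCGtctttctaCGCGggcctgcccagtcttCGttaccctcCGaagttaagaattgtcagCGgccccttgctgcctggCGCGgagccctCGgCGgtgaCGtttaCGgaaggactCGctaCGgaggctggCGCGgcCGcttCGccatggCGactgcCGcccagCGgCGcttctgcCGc

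These were the 2 promoters of the 54 that overlapped a doxorubicin H3K27ac region. Their shared domain lay in 2 doxorubicin H3K9me3 regions, the longer of 5523 bp, against 1 of 9605 bp in vehicle, with a scaled pileup of 7.57 in doxorubicin against 5.63 in vehicle. The median number of CpG over the 54 promoters was 6, against 7 over all promoters, with an upper quartile of 9 in the 54 and 20 in all. The hexamer TGCCGC, on either strand, was present in 9 of the 54 (16.7%) and in 11.6% of all promoters. TATAAA on either strand was in 5 of the 54 (9.26%) and 13.6% of all, and the p53 half-site in 3 of the 54 (5.56%) and 8.36% of all. These counts are small. Overlapping promoters of the same gene, as at Gm32026 and Gm41538, and copies such as Gm29709 and Gm35195 count separately in them. No promoter of the 54 overlapped a p53 region, and 53 lay on a doxorubicin H3K9me3 region. The exception was Olfr784, an olfactory receptor gene. Other protein-coding genes with a promoter in a domain were Catsper3, a subunit of the sperm calcium channel, Hmox2, a heme oxygenase, Anxa9, an annexin, and Zfp872, a zinc finger gene. Over the 46 domains with a promoter the median ratio of doxorubicin to vehicle was 1.27, from 0.808 to 1.79.

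The values that chose the domains were vehicle width and the absence of vehicle H3K27ac, so their vehicle width is a description. Widths ran from 4000 to 55446 bp with a median of 5944 bp, against 643 bp over all autosomal regions. The domains covered 16.7 Mb, 25.1% of the 66.5 Mb under autosomal vehicle H3K9me3. Just inside the limit, 67 domains of 4000 to 4048 bp had a median highest pileup of 40 fragments and 7 summits, and just outside, 39 unacetylated regions of 3952 to 3999 bp had 40 and 7. Of 2874 long regions 88.5% were unacetylated, and 330 overlapped vehicle H3K27ac. Every autosome held domains, from 0.554 per Mb on chromosome 19 to 1.40 per Mb on chromosome 13. Fragments left after filtering numbered 14402634 in the doxorubicin and 15992125 in the vehicle H3K9me3 list, and between 16583331 and 49588950 in the other 5. H3K27ac lay within 1000 bp of an end of 12 of 12 embryonic stem cell marker genes in doxorubicin and in vehicle, and of 5 of 8 fibroblast marker genes in doxorubicin and 3 of 8 in vehicle.

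All 2544 domains (100%, interval 99.8% to 100%) overlapped a doxorubicin H3K9me3 region, against 84.1% of all autosomal vehicle regions. Shorter unacetylated regions did so at 82.6% and long acetylated ones at 330 of 330. A domain chosen in 1 list for its length is bound to look shorter in another, so the mirrored choice is set beside each value. It took the 2339 long doxorubicin H3K9me3 domains without doxorubicin H3K27ac and followed them into vehicle. All 2339 of these overlapped a vehicle H3K9me3 region. Of the 2544, 75.1% overlapped a mirrored domain, and of the 2339, 83.7% overlapped a domain chosen in vehicle.

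The longest doxorubicin region at a domain had a median of 0.977 of the vehicle width, with quartiles of 0.759 and 1.03. Followed the other way, the longest vehicle region had a median of 0.995 of the doxorubicin width, with quartiles of 0.882 and 1.09. Doxorubicin regions covered 94.9% of the base pairs of the domains, and vehicle regions 94.5% of those of the mirrored domains. A doxorubicin region of at least 4000 bp remained at 2007 domains (78.9%, interval 77.3% to 80.4%), while a vehicle region of that width was present at 85.5% of the mirrored domains (84.0% to 86.8%). Coverage was therefore alike in either direction, and length was lost somewhat more often on the way from vehicle to doxorubicin.

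**Figure D1:**
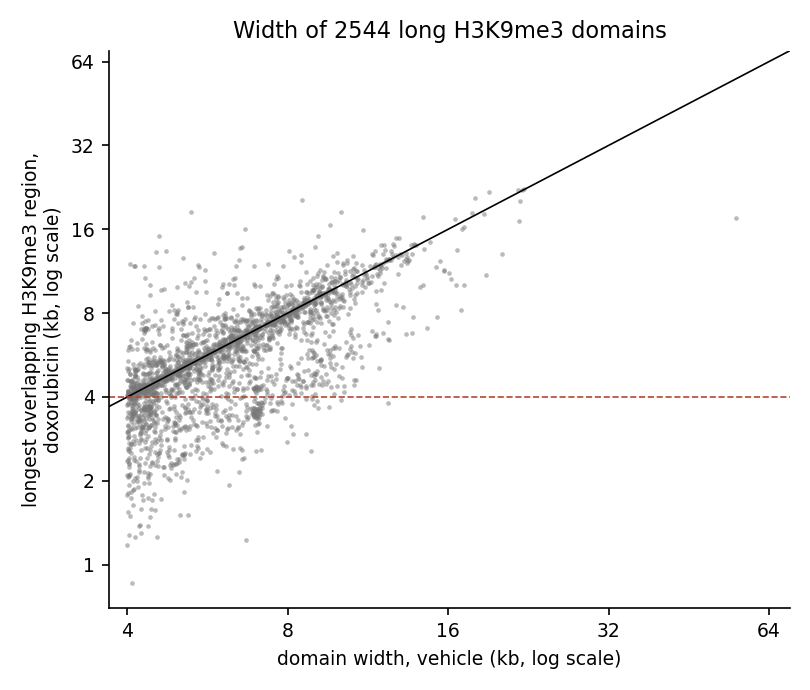
Each point is 1 of the 2544 domains, with its vehicle width in kb on the horizontal axis and the longest overlapping doxorubicin H3K9me3 region in kb on the vertical axis, both on log scales. The solid line marks equal width and the dashed line 4 kb. Points crowd along the line, with a cloud below it and fewer above. The quartiles of the ratio are 0.759 and 1.03, and the doxorubicin region is wider at 39.8% of the domains.

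Many domains were split. In doxorubicin 1508 domains (59.3%) lay in 1 region, 825 (32.4%) in 2 and 211 (8.29%) in 3 or more, up to 7. Of the mirrored domains 27.3% (25.5% to 29.1%) lay in 2 or more vehicle regions. The 1294 gaps between doxorubicin regions inside domains were short, with a median of 333 bp, quartiles of 278 and 428 bp and a longest of 2271 bp. The 786 vehicle gaps inside mirrored domains had a median of 317 bp. The shortest gap was 244 bp in doxorubicin and 245 bp in vehicle, so the lists show no closer breaks. A gap separates regions only where the pileup falls below the threshold of the caller. The doxorubicin library pool was the shallower one, while the unscaled highest pileup of the domains had a median of 61 in doxorubicin and 54 in vehicle. The part of depth in the splitting was not tested. When regions within 1000 bp were joined in both lists before the rule was applied, the median width ratio was 1.01. The middle 20% of the width held 24.7% of the doxorubicin gaps (22.5% to 27.2%) and 14% of the vehicle gaps of mirrored domains (11.7% to 16.6%). Among domains of 6500 to 7500 bp, a band picked after the plot of widths was seen, 74 of 218 doxorubicin gaps (33.9%) lay in the middle 20%, and 22 of 112 vehicle gaps (19.6%) in mirrored domains of that width.

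Outer edges moved little. The outermost doxorubicin edge lay within 250 bp of the vehicle edge at 68.3% of 5088 edges, more than 250 bp outward at 22.7% and more than 250 bp inward at 9.06%. The median edge was 25 bp outward in doxorubicin. Vehicle edges of mirrored domains had a median of -1 bp, which is inward by that length, with 49.2% outward against 61.4% for doxorubicin edges of the domains. The first 1000 bp outside the domains were covered to 32.1% in doxorubicin and 17.5% in vehicle. Outside mirrored domains the order was the opposite, with 21.6% in doxorubicin and 29.9% in vehicle, so the direction of this near-flank difference follows the list in which domains were chosen. From 1000 to 5000 bp outside, coverage was 18.1% in doxorubicin and 14.6% in vehicle, and 20.9% in doxorubicin and 17.3% in vehicle at mirrored domains. There the doxorubicin list covered more by either choice. It also held more regions in all, 78890 in doxorubicin against 60836 in vehicle.

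Inside the domains the mark has many summits. The doxorubicin list had 27664 and the vehicle list 29169, which is 1.66 per kb in doxorubicin and 1.75 per kb in vehicle. The doxorubicin list had fewer summits than the vehicle list at 1289 domains, more at 675 and as many at 580. Summit height followed the same course along the domains in both lists. In 10 equal bins, the median scaled pileup of summits was 1.67 in the first and 1.74 in the last bin in doxorubicin, and 1.31 in both end bins in vehicle. In bin 3 it was 2.64 in doxorubicin and 2.13 in vehicle, in bin 5 it was 2.43 in doxorubicin and 2.06 in vehicle, and in bin 8 it was 2.64 in doxorubicin and 2.19 in vehicle. The shape was thus a plateau with lower ends and a shallow dip in the middle.

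**Figure D2:**
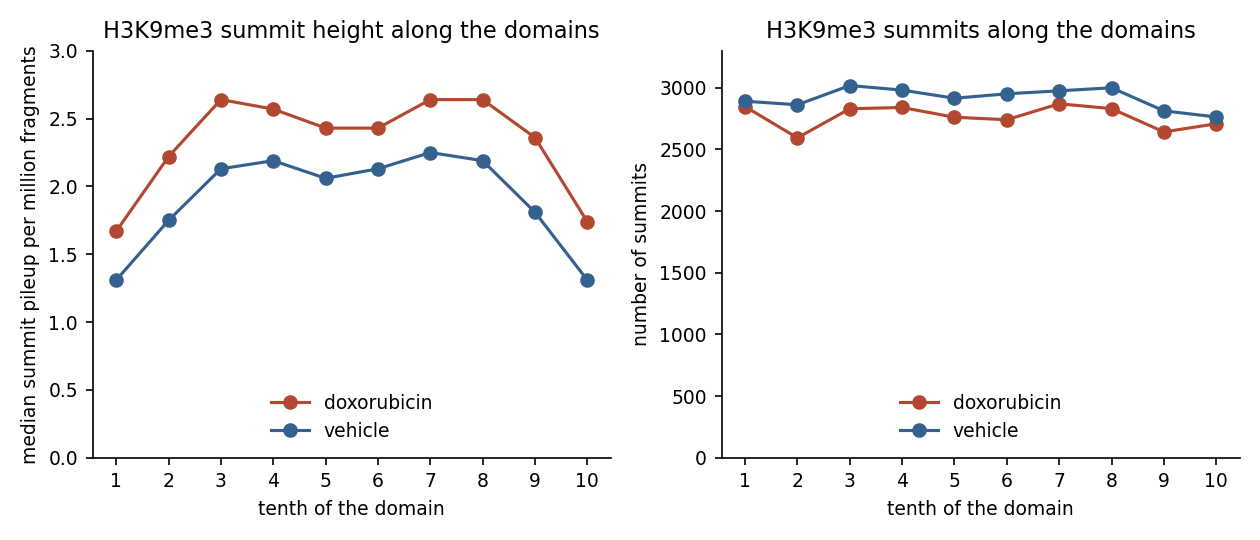
The left panel gives the median scaled pileup of H3K9me3 summits and the right panel the number of summits, in 10 equal bins along the 2544 domains, for doxorubicin and vehicle. Doxorubicin is above vehicle in all bins on the left and below it in all bins on the right.

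The highest summit of a domain had a pileup of 61 fragments at the median in doxorubicin, from 18 to 274, and 54 in vehicle, from 13 to 211. Scaled to 1000000 fragments after filtering these were 4.24 in doxorubicin, from 1.25 to 19, and 3.38 in vehicle, from 0.813 to 13.2. The ratio of doxorubicin to vehicle had a median of 1.27 and a range from 0.644 to 2.49. Among regions with a summit in both lists it was not particular to the domains. The median over these 45016 of 56941 autosomal regions was also 1.27, or 0.344 on the log2 scale. Relative to that shift the domains stood at 1.00. Regions with no doxorubicin summit have no ratio and are left out. All 2544 domains had a ratio, against 36567 of 47353 shorter unacetylated regions, so the medians of shorter and of all regions cover only regions still listed in doxorubicin. The mirrored domains had 1.27, shorter unacetylated regions 1.27 and long acetylated regions 1.21. By the median summit of each domain in place of the highest, the ratio was 1.22.

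The domains differed from the other regions in spread. The ratio was at least 1.5 at 369 domains (14.5%), where 28.3% of all regions reached it, and below 1 at 183 (7.19%), where 21.2% of all regions were. All regions here means those with a summit in both lists. The 10th and 90th percentiles of the domains were 1.03 and 1.57, against 0.849 and 1.86 over all regions. Mirrored domains had 1.03 and 1.58, and long acetylated regions 0.921 and 1.63. In mirrored domains the ratio was at least 1.5 at 15.7% and below 1 at 7.05%. The median vehicle pileup was 54 at the domains and 15 over all autosomal regions, and the part of counting error in this difference of spread was not tested. By width the median ratio went from 1.29 for domains of 4000 to 5000 bp to 1.23 for those over 10000 bp, and by chromosome it lay between 1.23 and 1.31.

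**Figure D3:**
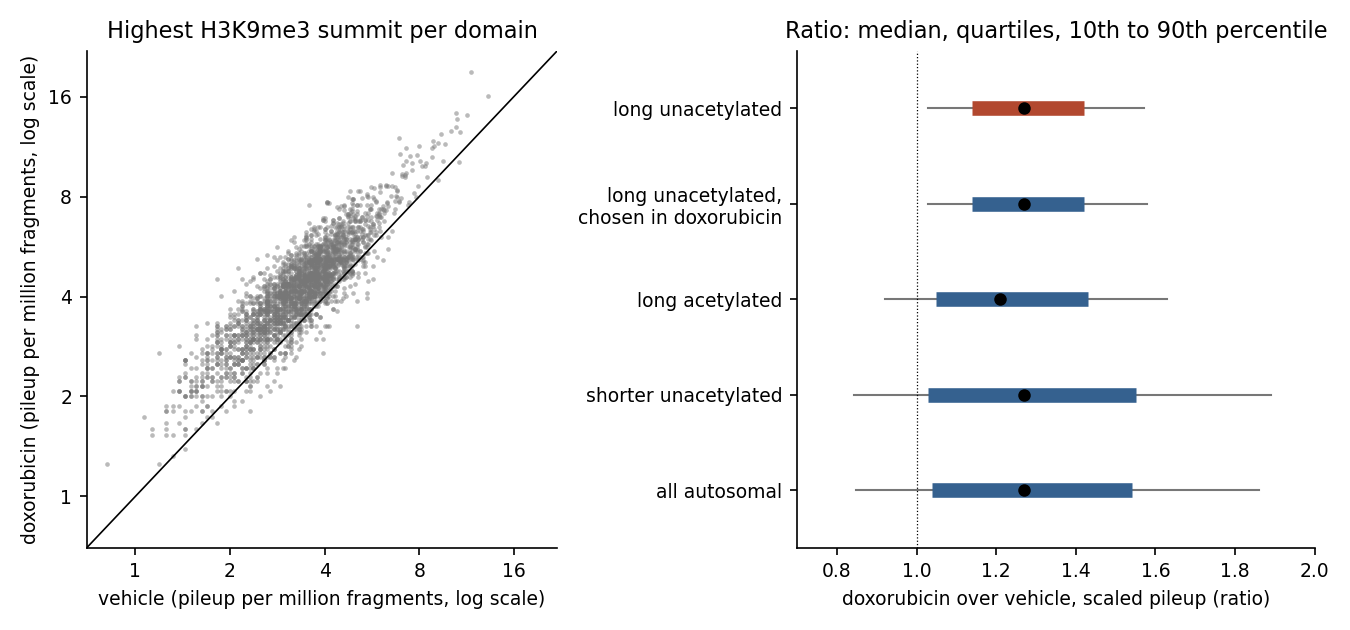
The left panel plots the highest H3K9me3 summit of each of the 2544 domains, as scaled pileup, in doxorubicin against vehicle on log scales, with a line of equality. The right panel gives the ratio of doxorubicin to vehicle for the domains and 4 other sets of regions, with the median as a dot, the quartiles as a bar and the 10th to 90th percentiles as a line. Regions without a summit in both lists are left out. The medians are 1.27 in 4 sets and 1.21 in the long acetylated regions, and the domains have a narrower spread than shorter regions.

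The highest ratios included a pseudogene locus and several places with no gene within 5000 bp. At Gm47939, a pseudogene on chromosome 10, the scaled pileup was 4.51 in doxorubicin and 1.81 in vehicle, a ratio of 2.49, and the doxorubicin region was 7544 bp wide against 4370 bp in vehicle. On chromosome 16, a domain of 21679 bp from 3641527 to 3663205, among the 12 longest, had 4.86 in doxorubicin and 2.13 in vehicle, a ratio of 2.29. At Ren1, which encodes renin, the domain of 4022 bp had 5.21 in doxorubicin and 2.44 in vehicle, and near Atad2b 7.57 in doxorubicin and 3.56 in vehicle, in a domain that overlapped an untagged region. Of the 8 domains with the highest ratios, 5 also overlapped a doxorubicin H3K27ac region, at Ren1 only at the edge of the domain. Of all domains 4.01% did so, although the median ratio was 1.27 both with and without that mark. The lowest ratios were 0.644 at Cped1, with 3.26 in doxorubicin and 5.06 in vehicle, 0.687 at Pakap, 0.727 at the pseudogene Gm51996 and 0.748 at Abhd2, which encodes a lipid hydrolase. These domains were ranked by the ratio, so their ratios are a description.

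The longest domain, from 83403801 to 83459246 on chromosome 10, lay in 7 doxorubicin regions, the longest of 17546 bp, and was 1 region of 55446 bp in vehicle. Its scaled pileup was 4.65 in doxorubicin and 4.00 in vehicle. It belongs to a run of 5 domains between D10Wsu102e and Aldh1l2, which encodes a mitochondrial folate enzyme. The run spans 114 kb, 108 kb of it under the domains. Doxorubicin had 20 H3K9me3 regions there that covered 88.0% of the span, and vehicle 8 that covered 97.7%. Neither H3K27ac list had a region in the span, and 1 p53 region of 256 bp had a fold enrichment of 2.73, the authors' ratio of pileup to background.

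**Figure D4:**
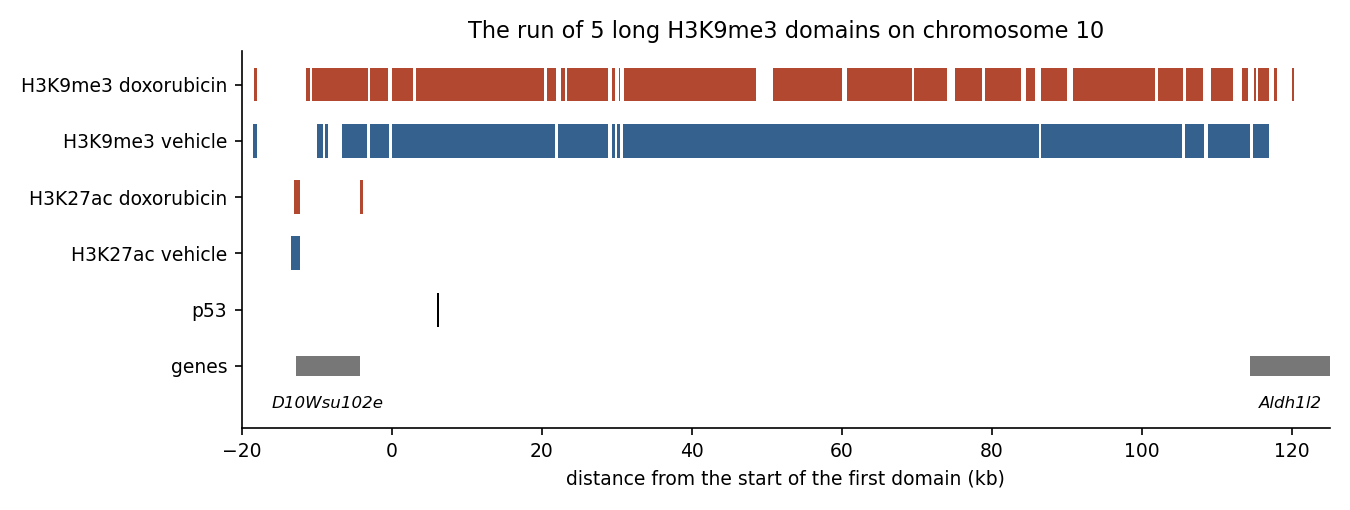
Regions of 5 lists along the run of 5 domains on chromosome 10, in kb from the start of the first domain, with doxorubicin above vehicle for each histone mark, then p53, and protein-coding and long non-coding genes at the bottom (Aldh1l2 runs past the right margin). Doxorubicin H3K9me3 is divided into 20 regions within the span where vehicle has 8.

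Other long domains kept their length. The domain that starts at 3000091 on chromosome 12 lay in 1 region of 22284 bp in doxorubicin, against 22240 bp in vehicle, with a scaled pileup of 7.85 in doxorubicin and 4.94 in vehicle, and overlapped both an untagged and an input region. Near Lrrc8a, which encodes a subunit of the volume-regulated anion channel, the region was 22225 bp wide in doxorubicin and 22044 bp in vehicle. Beside Tap2, a peptide transporter of antigen presentation, it was 21838 bp in doxorubicin and 19113 bp in vehicle. At Tiam1, an activator of the GTPase Rac, it was 18328 bp in doxorubicin and 17732 bp in vehicle. Of the 12 longest domains, the lowest width ratios were 0.316 and 0.581, both in the run on chromosome 10, and the highest was 1.15 at Cmc2. The domains at Tap2, Tiam1 and Cmc2 also overlapped an untagged region.

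Doxorubicin H3K27ac overlapped 102 of the 2544 domains (4.01%, interval 3.31% to 4.84%), against 13.1% of all autosomal vehicle H3K9me3 regions, which include regions acetylated in vehicle. By the rule vehicle H3K27ac was absent, so the mirrored share is the one to set beside it, and vehicle H3K27ac overlapped 45 of the 2339 mirrored domains (1.92%, 1.44% to 2.56%). The doxorubicin H3K27ac list was also the longer, with 112259 regions against 82177 in vehicle. Shorter unacetylated regions had doxorubicin H3K27ac at 4.2%, but they cover less sequence each. Per Mb the domains held 7.79 doxorubicin H3K27ac regions and the shorter regions 49.5. This density counts overlaps of 1 bp, and shorter regions have more edges per Mb, which raises theirs by an amount that was not measured. The 130 acetylated regions in domains were small, with a median width of 468 bp and a median fold enrichment of 3.74, against 4.03 over the whole doxorubicin H3K27ac list. Of these 130, 69 (53.1%) were centred more than 1000 bp inside a domain. All 130 also overlapped a doxorubicin H3K9me3 region by 1 bp or more, where such regions cover 94.9% of the domains. Of the 130, 13 were centred outside the domain. The H3K9me3 ratio of doxorubicin to vehicle had a median of 1.27 at the 102 domains with doxorubicin H3K27ac and 1.27 at the 2442 without. Their vehicle H3K9me3 differed, with a median scaled pileup of 2.94 at the 102 and 3.38 at the 2442.

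p53 regions that did not overlap an untagged region were found at 169 domains (6.64%, interval 5.74% to 7.68%), against 3.25% of all autosomal vehicle H3K9me3 regions. Longer regions have more room, and per Mb the domains held 11 p53 regions, shorter unacetylated regions 20.6 and long acetylated ones 46.9. An overlap of 1 bp counts here, and shorter regions have more edges per Mb, which raises their density by an amount that was not measured. Mirrored domains had p53 at 5.73% and 9.20 regions per Mb. The untagged list overlapped 4.72% of the domains, where 3.64% of all autosomal regions did, and had 10.5 regions per Mb in them. The input overlapped 0.904%, where 2.29% of all regions did. The p53 and untagged densities in domains were thus alike. They were also alike over all autosomal vehicle H3K9me3 regions, at 28.2 per Mb for p53 and 30.0 per Mb for untagged. These lists were called with different background settings and differ in length, with 11282 regions for p53 and 3979 for untagged. Most p53 regions in domains were weak. Their median fold enrichment was 3.94 over 183 regions, against 7.76 over the 10865 p53 regions without untagged overlap, and 38 had a fold of at least 10, of 4108 among those 10865. With a fold enrichment of at least 5 required, p53 was found at 2.2% of the domains (1.70% to 2.85%).

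Acetylation after doxorubicin was more frequent at domains with p53. Of the 169 domains with a p53 region 41 (24.3%, interval 18.4% to 31.2%) had doxorubicin H3K27ac, against 61 of 2375 without (2.57%, 2.00% to 3.29%). Domains with p53 were also wider, with a median of 7390 bp against 5888 bp without, and so had more room for an overlap. The share with H3K27ac was higher where p53 was stronger. H3K27ac was present at 7 of 113 domains (6.19%, 3.03% to 12.2%) whose best p53 region had a fold enrichment below 5, at 4 of 21 (19%, 7.67% to 40.0%) with 5 to 10, and at 30 of 35 (85.7%, 70.6% to 93.7%) with at least 10. Shorter unacetylated regions had it at 3.20% (3.04% to 3.36%) without p53, and by the same steps of p53 fold at 30.5% (24.3% to 37.4%), 51.5% (44.6% to 58.2%) and 75.8% (71.7% to 79.6%). Below a fold of 10 the share was thus lower in the domains, and at a fold of at least 10 the intervals of domains and shorter regions overlapped.

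**Figure D5:**
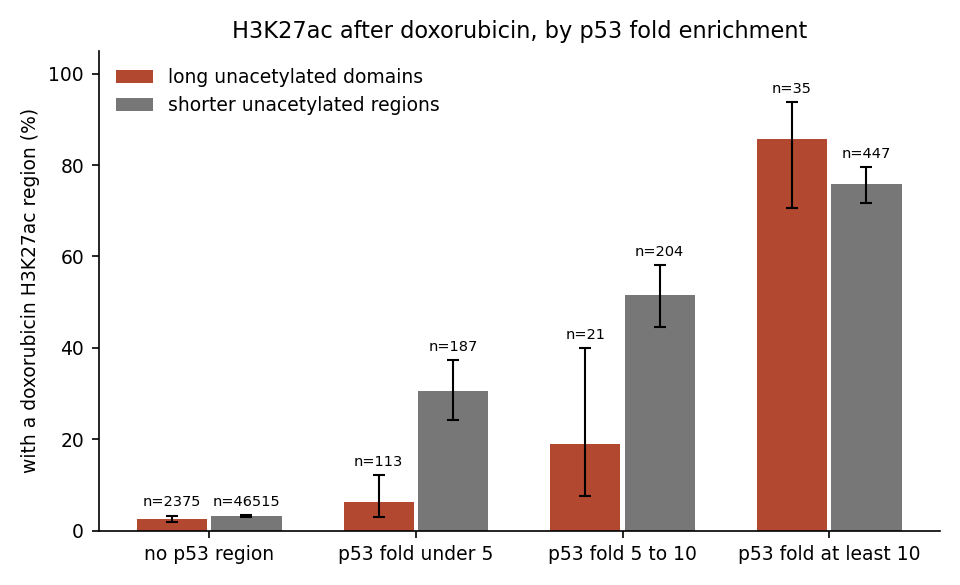
Bars give the percentage of long unacetylated domains and of shorter unacetylated vehicle H3K9me3 regions that overlapped a doxorubicin H3K27ac region, by the fold enrichment of the best p53 region, with 95% Wilson intervals and the number of regions above each bar. The share in domains is 2.57% with no p53 region and 85.7% at a fold enrichment of at least 10.

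Some of the acetylated regions overlapped p53 directly. Of the 130 doxorubicin H3K27ac regions in domains 47 (36.2%, interval 28.4% to 44.7%) overlapped a p53 region, in 38 domains. Over all 52232 H3K27ac regions listed in doxorubicin and not in vehicle the share was 5.99%, and over those in shorter unacetylated H3K9me3 regions it was 27.3% (25.2% to 29.4%). All 183 p53 regions in domains overlapped a doxorubicin H3K9me3 region by 1 bp or more, where such regions cover 94.9% of the domains. The H3K9me3 ratio had a median of 1.25 at domains with p53 and 1.27 at those without.

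The strongest p53 region in a domain had a fold enrichment of 82.6, on chromosome 10 from 53497860 to 53498679, in a domain of 4609 bp at the long non-coding genes Gm40650 and Gm20597. A doxorubicin H3K27ac region of fold 6.61 covered the same place, and the scaled H3K9me3 pileup was 3.68 in doxorubicin and 2.56 in vehicle. At Gm40820 on chromosome 11 the p53 fold was 69.2 and the H3K27ac fold 9.20, with a scaled H3K9me3 pileup of 2.99 in doxorubicin and 2.25 in vehicle. At Ano10, which encodes a protein of the anoctamin family, the p53 fold was 60.6 and the H3K27ac fold 5.46, and at Gm15614 they were 54.4 and 6.04. Of the 8 domains with the strongest p53, 7 had doxorubicin H3K27ac on the p53 region. The exception, on chromosome 13 from 3418758 to 3422994, had a p53 fold of 37.8. The promoters of Gm40820 and Gm15614 lie in these domains but outside the p53 regions.

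Among domains without p53, the strongest doxorubicin H3K27ac region, at Ren1, ran from 133362992 to 133365899 on chromosome 1. The domain ended at 133363079, so most of this H3K27ac region lay outside it. The H3K27ac region had a fold of 10.1. Gm21103 on chromosome 14 had 9.20, but its domain also overlapped an untagged region. Map3k4, a kinase of the stress-activated pathways, had H3K27ac of fold 6.90 on a p53 region of fold 13.4, inside a domain of 15693 bp with a scaled H3K9me3 pileup of 9.86 in doxorubicin and 8.19 in vehicle. Foxk2, a forkhead transcription factor, had H3K27ac of fold 6.33 on p53 of fold 8.32, in a domain that lay in 4 doxorubicin H3K9me3 regions.

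Most domains lay away from genes. No RefSeq gene overlapped 1679 of them (66.0%), close to the 65.1% of shorter unacetylated regions, while 37.9% of the long acetylated regions overlapped none. Protein-coding genes overlapped 564 domains (22.2%), and 507 domains lay wholly within a protein-coding gene and off its ends. Pseudogenes overlapped 4.87% of the domains and 2.28% of shorter regions. Longer regions have more room for an overlap, and these gene shares were not set per Mb. A protein-coding gene end lay in 60 domains (2.36%). Gpc6, which encodes the heparan sulfate proteoglycan glypican 6, held 4 domains within its 1054610 bp. Zfp951, the phosphate transporter gene Slc20a2, the cadherin gene Cdh13 and the mitochondrial gene Cmc1 held 3 each.

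Zinc finger genes named Zfp were the family with the most domains. Of 416 such genes 19 (4.57%) overlapped a domain, against 530 of 21896 protein-coding genes (2.42%), and they involved 23 domains. Many encode the KRAB zinc finger proteins that direct H3K9me3 to retroviruses. Over the 23 domains the H3K9me3 ratio of doxorubicin to vehicle had a median of 1.16, from 0.874 to 1.65, against 1.27 over all 2544. It was below 1 at 6 (26.1%, interval 12.5% to 46.5%), against 7.19% of all domains and 21.2% of all regions with a summit in both lists. Their median width ratio was 0.776, against 0.977, and 12 (52.2%, 33.0% to 70.8%) lay in 2 or more doxorubicin regions, an interval that holds the share of all domains. Zfp936 on chromosome 7 held a domain with a scaled pileup of 6.11 in doxorubicin and 4.56 in vehicle, and another at 4.37 in doxorubicin and 5.00 in vehicle. Zfp277 on chromosome 12 had 5.76 in doxorubicin and 3.50 in vehicle, and Zfp872 on chromosome 9, in a domain of 15718 bp, 6.60 in doxorubicin and 5.69 in vehicle. Zfp445, whose product binds imprinted regions, had 3.68 in doxorubicin and 3.25 in vehicle and a p53 region of fold 3.53. Zfp951 and Zfp808 had a domain with doxorubicin H3K27ac.

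Genes of vomeronasal receptors, which detect pheromones, and their pseudogenes overlapped a domain in 12 of 645 cases and involved 13 domains. All of the 12 but Vmn2r38 and Vmn2r60 were named as pseudogenes. The median ratio of the 13 domains was 1.15, from 0.791 at Vmn2r-ps23 to 1.95 at Vmn2r-ps80, and 4 were below 1. Another domain at Vmn2r-ps23 had 1.60. The domains of Vmn2r-ps16 and Vmn2r-ps17 are also among the 23 of the Zfp genes, so the 2 sets are not separate. Olfactory receptor genes and pseudogenes overlapped in 5 of 1428 cases, with ratios from 1.28 to 1.46 in 4 domains. All of the 5 but Olfr1055 and Olfr784 were named as pseudogenes. Cytochrome P450 genes had 5 of 134, among them Cyp2j13 with a scaled pileup of 3.96 in doxorubicin and 3.13 in vehicle. Protocadherin genes had 7 of 58, Pcdha1 to Pcdha7, all by 1 domain. Serpin genes had 2 of 69, Serpinb1c and Serpinb6b, killer lectin receptor genes 1 of 33, Klrb1c, and secretoglobin genes 1 of 53, Scgb1b30. Defensin genes had 0 of 85.

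Other lists with no or 1 gene under a domain were those of imprinted genes (0 of 42), the 2-cell-like state (0 of 29), the H3K9me3 machinery (0 of 30), pluripotency (0 of 25), germ-line genes (1 of 29) and p53 targets (1 of 35). Over all protein-coding genes the share was 2.42%. The germ-line gene was Mov10l1, a helicase of the piRNA pathway. Its domain of 8671 bp had a scaled pileup of 4.79 in doxorubicin and 4.75 in vehicle, and lay in 3 doxorubicin regions. The p53 target was Sesn1, which encodes the stress protein sestrin 1. The domain there, of 7057 bp from 41840562 to 41847618 on chromosome 10, had 6.18 in doxorubicin and 4.56 in vehicle, and neither p53 nor doxorubicin H3K27ac overlapped it. The hairpins of Mir7217 and Mir7218 lay in 1 domain on chromosome 17 from 27346048 to 27358725.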

How the data were processed

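The study profiled 7 groups of 2 libraries. The submitters' processing notes name Bowtie2 2.2.6 as aligner, and the file headers give mm10 plus 1 contig as genome. The authors pooled the libraries of each group and called peaks with MACS2 2.2.5, per the file headers, with 1 fragment kept per position and q of at most 0.05. Both H3K9me3 lists, both H3K27ac lists and the input had no control. Input served as control for the HA lists, with a local background for p53 and a genome-wide one for the other lists, per the file headers. The authors deposited 3 measures of each summit, the signal (fragment pileup), the q value as −log10, and the fold enrichment, a ratio of pileup to background. Widths are in bp as deposited.

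Summits of 1 interval were joined into a region with the values of the highest. H3K9me3 pileups were scaled to 1000000 fragments after filtering. Overlap means at least 1 bp. Since each list pools its libraries, no test across samples was possible and no p-values are given. Domains and gene lists were chosen with earlier results of these data known. Named genes were those at the 12 longest domains, at the 8 with the highest and lowest ratio, strongest p53 or strongest doxorubicin H3K27ac, by overlap or within 5000 bp, the members of 15 gene lists under a domain, the genes with most domains and, chosen after their values were seen, genes with a promoter in a domain. Genes and promoters came from RefSeq (GRCm38.p6, 32851 promoters, all matched by position). Python 3.11.15, numpy 2.4.6, pandas 2.3.3, scipy 1.17.1, biopython 1.88 and matplotlib 3.10.9 were used, and overlaps were checked against bedtools 2.31.1 on simulated lists.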

Additional observations from a re-analysis of the deposited data

How the results depend on the processing

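Of 47 values recomputed under other settings 35 stayed within 1.5 times the main count or within the interval of the main value, and 12 moved. With a minimum width of 3000 bp there were 3858 domains and with 6000 bp 1251. At 6000 bp the median width ratio was 0.965 and the share with p53 8.31%. With regions within 1000 bp merged the width ratio was 1.01, above 1 where the main value of 0.977 was below it, and the share with doxorubicin H3K27ac 4.87%. By covered base pairs the width ratio was 0.964. With a −log10 q of at least 5 the share with doxorubicin H3K27ac was 2.99%. The pileup ratio was 1.14 with no scaling, 1.00 when scaled by the median of all regions and 1.22 by the median summit, and the share with p53 was 2.2% at a fold enrichment of at least 5, the last 2 settings chosen after the data were seen. The lower count at 6000 bp and the higher at 3000 bp follow from the rule, and the cause of the other moves was not tested. All domains overlapped doxorubicin H3K9me3 in each setting.

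No paired analysis was possible because the peaks were called on pooled libraries, and for the same reason none was left out in turn. The lists hold called regions, so a gap or an absence means below the threshold of the caller, not absence of the mark. The genome sequence and repeats were not used here.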

Other observations

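The same rule applied to chromosome X gave 147 domains among 3282 H3K9me3 regions, with a median width of 5426 bp. All 147 were listed in doxorubicin, the median ratio of doxorubicin to vehicle was 1.27 and the median width ratio 0.995. p53 overlapped 6 of them and doxorubicin H3K27ac 1. The added contig held 2 such domains among 58 regions, both listed in doxorubicin, of which 1 overlapped p53 and 1 doxorubicin H3K27ac.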
